A study of Mus musculus with 9 samples.

Results

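The genes of TGF-beta and BMP signaling were followed in a mouse line labelled as heart endothelial, whose Zbtb46 level had been lowered or raised. The members are 46 listed genes, found by symbol among the 55487 genes of the count table: ligands, latency proteins, secreted antagonists, receptors, Smads with their regulators, and target genes. All 46 were present, and 40 passed the filter on low counts and were tested.

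TGF-beta family ligands are secreted dimers that bring type I and type II receptor kinases together at the cell surface. TGF-beta and activin receptors phosphorylate Smad2 and Smad3, BMP receptors phosphorylate Smad1, Smad5 and Smad9, and either set joins Smad4 and enters the nucleus to regulate genes such as the Id family. In blood vessels the pathway is known for its part in endothelial quiescence, vessel stability and the change of endothelial cells toward a mesenchymal state. The endothelial receptor Acvrl1 (ALK1) and the co-receptor endoglin (Eng) are both known for mutations that cause a hereditary vascular disease.

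Poly-A RNA was sequenced from MCEC, a line labelled as mouse cardiac endothelial cells, in 3 groups of 3 libraries. WT libraries came from unmodified cells, KD libraries from cells after knockdown of Zbtb46, and OE libraries from cells forced to overexpress it. Zbtb46 encodes a BTB zinc finger transcription factor. The labels do not say how either modification was made, whether a line was 1 clone, or whether replicates were separate cultures, so p values measure the spread between these libraries, which may be technical. Cells carrying a control vector were not analysed here.

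Library totals ran from 39491828 to 55745849 counts. The share of counts on rRNA genes ran from 7.44% to 17.3% over the WT libraries, 9.55% to 12.0% in KD and 14.4% to 18.2% in OE, with WT replicate 2 lowest. With counts scaled by totals alone, WT libraries differed from each other by a median chi-square of 8.17 to 11.2 times what sampling noise gives. Libraries of the other groups differed by 3.01 to 5.54 times. A shift in composition between libraries, as in the rRNA share, enters this value. The part of the rRNA share or of this spread in the results was not tested. Levels are given as CPM, the counts relative to library size after TMM scaling. Zbtb46 itself stood at 13.3, 14.4 and 13.2 CPM in WT, 11.7, 11.4 and 10.6 CPM in KD and 192, 188 and 194 CPM in OE. Zbtb46 was thus 17.8% lower in KD (edgeR adjusted p 0.00144) and 13.99-fold higher in OE (edgeR adjusted p 3.22e-21). The labelled cell type was checked against 14 endothelial markers, of which 4 reached 1 CPM in WT, 4 in KD and 3 in OE. Pecam1 and Cdh5 had means of at most 0.15 CPM in every group, and Erg had no count. The summed endothelial markers ran from 27.6 to 28.1 CPM in WT, 18.1 to 19.3 in KD and 25.1 to 29.5 in OE, with Flt1 the most abundant. The sum in OE hides changes in both directions. Flt1 rose there by 0.35 on the log2 scale (edgeR adjusted p 0.00151). Tek, Egfl7 and Kdr, the others that reached 1 CPM in WT, changed by -1.99, -1.05 and -0.58 (edgeR adjusted p 3.12e-06, 3.65e-05 and 0.0276). Most of the 14 endothelial markers were thus below 1 CPM in every group and do not bear out the label. Single markers of other cell types stood far higher: Col1a1 at a mean of 5256 CPM in WT and the mesothelial marker Upk3b at 1634 CPM. On the fibroblast list 3 of 8 markers reached 1 CPM in each group, and Col1a1 made up most of the sum. That sum ran from 5107 to 5673 CPM in WT, 4845 to 4909 in KD and 4036 to 4131 in OE. On the lymphatic endothelial list 2 of 4 markers reached 1 CPM in each group, Pdpn and Flt4, while Prox1 and Lyve1 had means of at most 0.017 CPM. Its sum ran from 202 to 207, 202 to 209.9 and 158 to 163 in the same order. On the epithelial and mesothelial list 3 of 6 markers reached 1 CPM in each group. The sum of this list ran from 2299 to 2505 CPM in WT, 2410.1 to 2489 in KD and 1836 to 1887 in OE. In OE, Upk3b fell by 0.56 and the lymphatic marker gene Flt4 by 0.62 on the log2 scale. The change of Pdpn in OE was -0.05 and did not pass (edgeR adjusted p 0.428). The part of these shifts in the results was not tested. In bulk RNA, fewer cells of a type and less RNA per cell cannot be told apart.

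Levels of different genes were compared as CPM per kb of exon. Over the 46 members the WT means per kb ran from 0 to 151. The Id genes Id1 and Id3, which encode inhibitors of helix-loop-helix transcription factors, led at 151 ± 5.31 (SD, n = 3) and 96.8 ± 3.51 CPM per kb. Below them came the latency protein gene Ltbp3 (40.3 ± 3.48), the corepressor gene Ski (37.2 ± 1.07), the inhibitory Smad gene Smad6 (36.9 ± 0.644), Tgfbr2 (32.2 ± 1.67) and Eng (30.7 ± 1.67). Ltbp3, Ski and Smad6 lay within their spread of each other, as did Tgfbr2 and Eng. Among type II receptors, Tgfbr2 was above Bmpr2 (8.06 ± 1.25), Acvr2a (3.54 ± 0.518) and Acvr2b (0.921 ± 0.051 CPM per kb). Among type I receptors, Bmpr1a led at 20.3 ± 1.93, above Acvr1 (7.35 ± 0.353), Tgfbr1 (5.57 ± 0.744) and Acvr1b (4.77 ± 0.325 CPM per kb).

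The 6 members left out by the filter were Bmp2, Bmp7, Grem1, Tgfbi, Acvrl1 and Bmpr1b. Bmp2 had 0 counts in all 9 libraries, where a count of 0 allows between 0.0504 and 0.0791 CPM per library, a limit that covers counting error only. Bmp7, Grem1 and Tgfbi had at most 1 count in any library. Acvrl1, the ALK1 receptor gene of endothelial cells, had 11, 10 and 10 counts in WT, 2, 1 and 3 in KD and 6, 4 and 9 in OE. Summed over libraries, the ratio of KD to WT for Acvrl1 was 0.198, with an exact 95% counting interval of 0.0675 to 0.482. That of OE to WT was 0.616, with an interval of 0.329 to 1.13. The BMP type I receptor gene Bmpr1b had 16 counts over the WT libraries, of which 14 were in a single library, 34 over KD and 6 over OE.

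**Figure D1:**
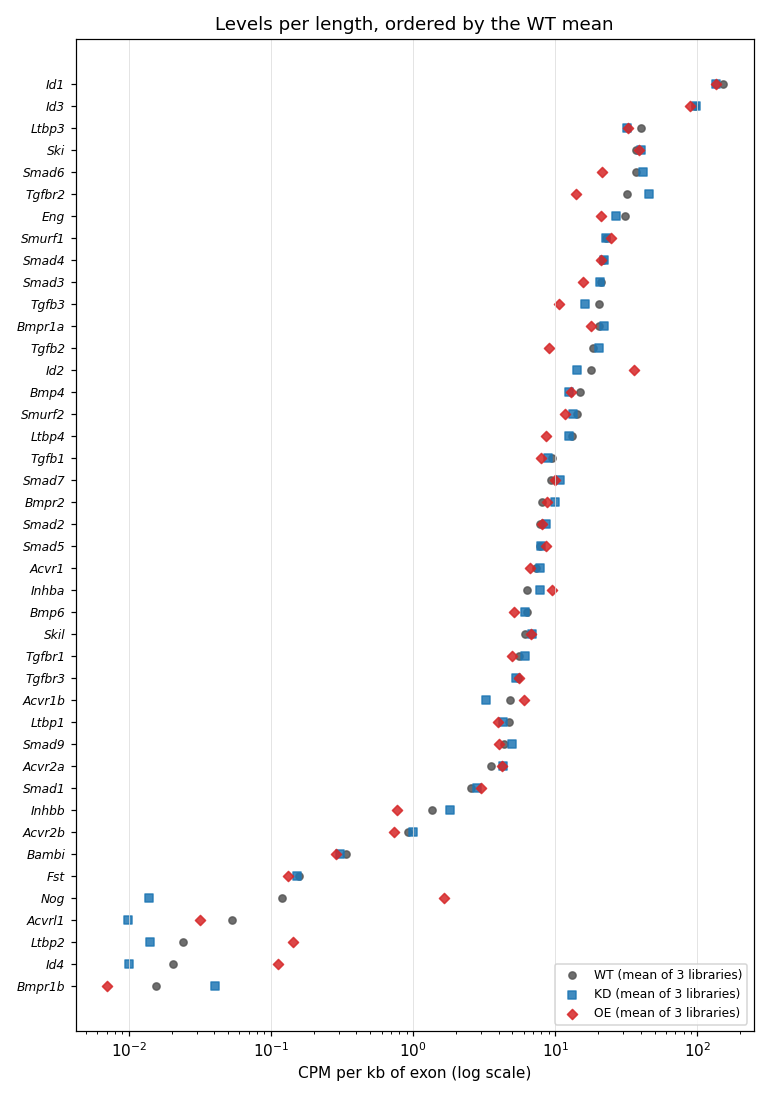
Mean CPM per kb of exon (log axis) of each member with a group mean above 0.01, ordered by WT; circles are WT, squares KD and diamonds OE, each the mean of 3 libraries. Id1 and Id3 head the order and Acvrl1, Ltbp2, Id4 and Bmpr1b close it, with Nog and Id2 displaced upward and Tgfbr2, Tgfb2, Tgfb3 and Smad6 displaced downward in OE.

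Lowering Zbtb46 was studied by setting KD against WT. Here 16 of the 40 tested members passed an adjusted p of 0.05 (edgeR quasi-likelihood test), where 21.3% of all genes tested did, and 20 had groups that did not overlap, where 34.7% of all genes had. Of these, 8 were higher, where 11% of all genes were, and 8 were lower, where 10.4% were. Nog was the only member that passed with a change of at least 2-fold, as 2.64% of all genes did. It entered the test only through its OE counts, as did Ltbp2 and Id4. Without these genes 8 members were higher and 7 lower, 0 passed with at least 2-fold and 19 had groups that did not overlap. Id4 stood 2.18-fold lower without passing. Leaving out WT replicate 2 gave 14 higher and 9 lower members, where 2546 and 2153 of all 17354 genes tested were. Leaving out KD replicate 3 gave 3 higher and 8 lower, where 1358 and 1306 of 17431 genes were. With library totals alone as scaling, 3 members were higher and 7 lower, and the share of higher genes among all genes called was 35.8% in place of 51.4%. With upper-quartile factors 6 members were higher and 8 lower, and that share was 42.7%. The median log2 fold change was 0.013 over the members and -0.0022 over all genes tested.

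In the comparison of OE with WT, 27 of the 40 tested members passed, where 36.4% of all genes did, and 30 had groups that did not overlap, where 45.1% of all genes had. Those higher numbered 10, where 17% of all genes were, and those lower 17, where 19.5% were. A change of at least 2-fold that passed was found for 6 members and for 5.34% of all genes. Nog, Ltbp2 and Id4, the members with the largest rises, had entered the test only through their OE counts, so that their passing is no support. Without them 7 members were higher and 17 lower, 3 passed with at least 2-fold and 27 had groups that did not overlap. The median was -0.16 over the members and 0.0020 over all genes. With library totals alone, 6 members were higher and 18 lower, and among all genes called 31.6% were higher in place of 46.6%. Upper-quartile factors gave 12 and 16 members, with 54.3% of all genes called higher.

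Between OE and KD, 24 members differed, 7 higher and 17 lower in OE, against 41.5% of all genes in either direction, 19.4% higher and 22.1% lower. Groups did not overlap for 30 members and for 55.3% of all genes, and 7 members passed with a difference of at least 2-fold, as did 7.49% of all genes. Without Nog, Ltbp2 and Id4, which are high in OE and entered the test through it, 4 members were higher and 17 lower, 4 passed with at least 2-fold and 27 did not overlap. The share of higher genes among all genes called was 57.6% with upper-quartile factors in place of 46.8%, where the members split into 8 higher and 15 lower. The members are well expressed: 34 have a mean of at least 5 CPM over the libraries. Of these 34, 15 passed in KD, 24 in OE and 20 between OE and KD, and of all genes at that level 29.1%, 48.9% and 54.4% did, a comparison chosen after the data were seen. Comparisons with WT share the WT libraries, so their values are set side by side for each gene below.

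**Figure D2:**
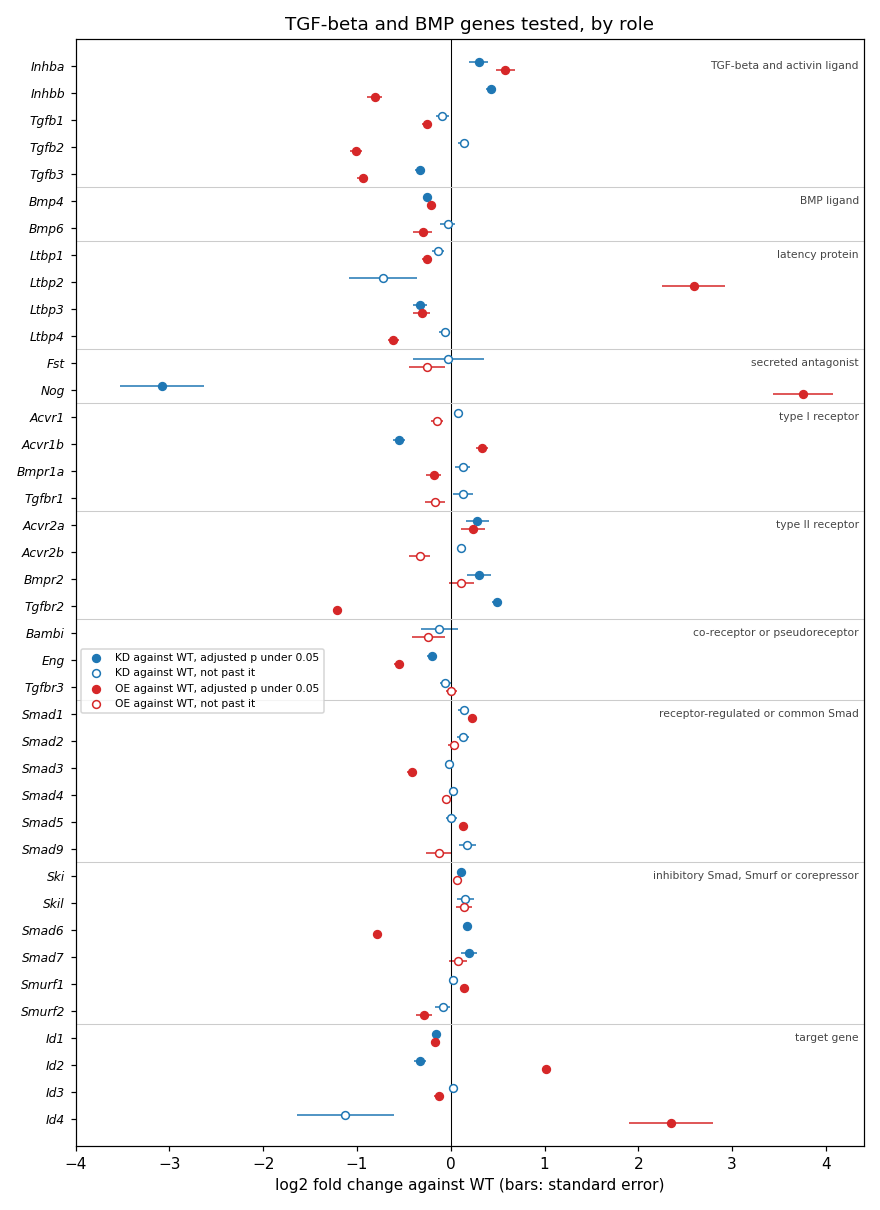
Log2 fold change of the 40 tested members in KD (blue) and OE (red) against WT, with standard errors, grouped by role; filled points passed an adjusted p of 0.05. All KD points but those of Acvr1b, Nog, Ltbp2 and Id4 lie within 0.5 of zero, while Nog, Id4, Ltbp2 and Id2 stand high and Tgfbr2, Tgfb2 and Tgfb3 low in OE.

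Among the tested receptors the largest change was in Tgfbr2, the type II receptor that binds TGF-beta itself. Tgfbr2 (ENSMUSG00000032440, minus strand, chr9:116084293-116175360 of GRCm38) stood at 248, 275 and 268 CPM in WT, 359, 383 and 374 in KD, and 111, 113 and 118 in OE. The 3 groups did not overlap, with KD highest and OE lowest. The rise in KD was 1.41-fold (log2 fold change 0.49, SE 0.051, edgeR adjusted p 7.66e-08) and the fall in OE 2.31-fold (-1.21, SE 0.050, adjusted p 2.20e-14). OE stood 3.26-fold under KD (edgeR adjusted p 5.92e-17). Set against Bmpr2 per kb of exon, the Tgfbr2 level had a ratio of 4.04 ± 0.429 (SD, n = 3) for WT, 4.57 ± 0.231 in KD and 1.60 ± 0.062 in OE.

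Acvr1b, the activin type I receptor also called ALK4, went the other way. Acvr1b (ENSMUSG00000000532, plus strand, chr15:101174067-101213684) had 19.6, 22.4 and 21.2 CPM in WT, 14.7, 14.5 and 14.05 in KD and 26.3, 26.01 and 27.7 in OE. Again the groups did not overlap, but here KD was lowest and OE highest. It fell by 0.55 on the log2 scale in KD (SE 0.060, edgeR adjusted p 1.01e-05) and rose by 0.33 in OE (SE 0.063, edgeR adjusted p 0.000631).

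The sequences before the start sites of Tgfbr2, Acvr1b and of Smad6 and Inhbb, described below, are shown because these genes are among the members that passed in both comparisons with opposite signs. Each is the 250 bases before the start on the gene's own strand, from RefSeq on GRCm38.p6, which gave a promoter for 33 of the 46 members. Capitals mark the letters CAGAC, searched on both strands, which Smad3 and Smad4 bind. Read from the other strand this motif is spelled GTCTG. The second motif searched was the Smad element GGCGCC, which reads the same on both strands and can share an end base with the first.
Tgfbr2 (chr9:116175364-116175613, minus strand): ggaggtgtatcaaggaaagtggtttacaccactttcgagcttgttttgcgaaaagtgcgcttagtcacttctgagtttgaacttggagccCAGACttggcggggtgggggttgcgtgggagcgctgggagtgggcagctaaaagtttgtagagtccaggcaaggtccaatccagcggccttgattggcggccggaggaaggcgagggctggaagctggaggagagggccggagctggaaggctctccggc
Smad6 (chr9:64022060-64022309, minus strand): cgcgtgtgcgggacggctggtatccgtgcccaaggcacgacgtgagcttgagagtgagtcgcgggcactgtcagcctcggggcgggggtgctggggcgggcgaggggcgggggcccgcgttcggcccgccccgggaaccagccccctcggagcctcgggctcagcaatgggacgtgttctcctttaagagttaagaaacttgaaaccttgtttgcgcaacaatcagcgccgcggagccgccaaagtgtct
Inhbb (chr1:119422249-119422498, minus strand): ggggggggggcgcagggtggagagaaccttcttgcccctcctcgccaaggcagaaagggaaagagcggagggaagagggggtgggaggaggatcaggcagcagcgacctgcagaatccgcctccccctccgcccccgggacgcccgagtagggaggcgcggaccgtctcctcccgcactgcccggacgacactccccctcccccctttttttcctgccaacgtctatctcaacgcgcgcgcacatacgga
Acvr1b (chr15:101173822-101174071, plus strand): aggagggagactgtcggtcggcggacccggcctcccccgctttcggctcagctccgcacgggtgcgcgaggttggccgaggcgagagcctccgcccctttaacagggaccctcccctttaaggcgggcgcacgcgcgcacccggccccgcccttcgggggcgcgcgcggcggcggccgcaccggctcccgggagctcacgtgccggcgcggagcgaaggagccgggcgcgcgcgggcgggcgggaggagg
Tgfbr2 held 1 match to CAGAC, and Smad6, Inhbb and Acvr1b held 0 matches to either motif in this window. Of 32851 promoter windows of this length, 42.2% held CAGAC and 9.59% GGCGCC. The GC content was 58.4% for Tgfbr2, 66.8% for Smad6, 68% for Inhbb and 78.8% for Acvr1b, where the median over all windows was 52.4%. A match is a run of letters, not a measured site.

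The other tested type I receptors differed less. Tgfbr1, the partner of Tgfbr2, had 36.4 ± 4.86 CPM in WT, 39.9 ± 0.702 in KD and 32.4 ± 0.362 in OE (SD, n = 3), and passed only between OE and KD (-0.30, edgeR adjusted p 0.00223). Without WT replicate 2 it also passed in KD against WT (0.25), and without WT replicate 3 in OE against WT (-0.25). The BMP receptor genes Bmpr1a and Acvr1 showed a like order. Bmpr1a passed in OE against WT (-0.18, edgeR adjusted p 0.0135, and 0.0726 without OE replicate 1) and between OE and KD (-0.31). In KD it passed only when WT replicate 2 was left out (0.21 in place of 0.13). Acvr1 passed between OE and KD (-0.22) and, without WT replicate 3, in OE against WT (-0.19).

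Of the other type II receptors, Bmpr2, the BMP receptor, was higher in KD than in WT (0.30, edgeR adjusted p 0.0388). That call was lost without WT replicate 1 or 3 or without any KD library, with adjusted p values of 0.0564 to 0.246, and without WT replicate 2 a rise in OE passed as well (0.24). Acvr2a, an activin and BMP receptor, passed in KD (0.28, edgeR adjusted p 0.0223) and in OE (0.24, adjusted p 0.0355). The KD call was lost without WT replicate 3 or any KD library (adjusted p 0.0508 to 0.103), and the OE call without any single library but WT replicate 2 and OE replicate 1 (0.0505 to 0.216). Acvr2a shares 7.84% of its exon bases with Orc4 on the opposite strand, a gene that changed by 0.29 in OE, and the use of strand in counting is not given in the sources used here. Acvr2b passed only between OE and KD (-0.44, edgeR adjusted p 0.0215), and not without KD replicate 1 or 2 or OE replicate 1 or 3 (0.0527 to 0.104).

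Among the co-receptors, Eng (ENSMUSG00000026814, plus strand, chr2:32646595-32682669) encodes endoglin, which presents BMP and TGF-beta ligands on endothelial cells. It had 119, 122 and 132 CPM in WT, 107, 106 and 112 in KD and 82.1, 88.1 and 84.4 in OE. Each modified group lay below WT and OE lay below KD, without overlap. The log2 fold change was -0.20 in KD (SE 0.051, edgeR adjusted p 0.00383) and -0.55 in OE (SE 0.054, edgeR adjusted p 1.04e-08). Betaglycan, encoded by Tgfbr3, presents TGF-beta2 and had 35.9 ± 2.08, 34.5 ± 1.53 and 36.1 ± 1.46 CPM (SD, n = 3) for WT, KD and OE. The decoy receptor gene Bambi had 1.71 ± 0.108, 1.56 ± 0.344 and 1.45 ± 0.313 CPM. Neither passed in any comparison.

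The 3 TGF-beta ligand genes were all lower in OE than in WT. Tgfb2 (ENSMUSG00000039239, minus strand, chr1:186622792-186705989) had 109.6, 111 and 98.2 CPM in WT, 115, 118 and 117 in KD and 51.0, 52.4 and 54.9 in OE. The OE libraries were about level with each other and far below the rest, at 2.02-fold under WT (-1.01, SE 0.065, edgeR adjusted p 2.42e-12). In KD its change was 0.14 (SE 0.058, edgeR adjusted p 0.0585, and 0.00955 without WT replicate 2), although the KD and WT libraries did not overlap.

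Tgfb3 (ENSMUSG00000021253, minus strand, chr12:86056745-86079041) had 67.3, 65.1 and 73.5 CPM in WT, 55.4, 53.9 and 55.1 in KD and 36.7, 35.1 and 35.6 in OE. Its groups stood apart in the order WT, KD, OE. It fell by 0.33 on the log2 scale in KD (SE 0.054, edgeR adjusted p 0.000127) and by 0.94 in OE (SE 0.055, edgeR adjusted p 1.81e-11). Tgfb1 had 47.8 ± 2.32 CPM in WT, 45.0 ± 2.74 in KD and 40.1 ± 0.995 in OE (SD, n = 3), a change of -0.26 in OE (edgeR adjusted p 0.00145).

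Per kb of exon, the 3 TGF-beta genes summed to 47.8, 48.3 and 48.3 CPM per kb in WT, 45.5, 44.6 and 45.8 in KD and 27.8, 27.2 and 27.9 in OE. Tgfb1 made up 19.7% ± 0.841 (SD, n = 3) of this sum in WT, 19.7% ± 0.940 in KD and 28.7% ± 0.531 in OE. For Tgfb2 the share was 38.2% ± 2.64 (WT), 44.6% ± 1.01 in KD and 33.0% ± 1.16 in OE, and that of Tgfb3 was 42.2% ± 2.63, 35.7% ± 0.257 and 38.3% ± 0.629. The Tgfb1 share in OE thus lay above every WT and KD library.

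The activin subunit genes split. Inhba (ENSMUSG00000041324, plus strand, chr13:16011851-16031621), which encodes the subunit of activin A, had 40.002, 45.9 and 36.2 CPM in WT, 50.5, 49.8 and 50.3 in KD and 59.5, 62.3 and 61.2 in OE. WT was lowest and OE highest, with no overlap. The log2 fold change was 0.30 in KD (SE 0.10, edgeR adjusted p 0.00251) and 0.58 in OE (SE 0.10, edgeR adjusted p 5.65e-07).

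Inhbb (ENSMUSG00000037035, minus strand, chr1:119415465-119422248), which encodes the subunit of activin B, had 5.69, 5.63 and 5.90 CPM in WT, 7.31, 7.58 and 8.23 in KD and 2.96, 3.55 and 3.29 in OE. KD was highest and OE lowest. The change was 0.43 in KD (SE 0.055, edgeR adjusted p 0.0133, lost without KD replicate 3 at 0.0729) and -0.81 in OE (SE 0.078, edgeR adjusted p 2.81e-05). The ratio of Inhba to Inhbb per kb of exon was 4.73 ± 0.678 (SD, n = 3) for WT, 4.346 ± 0.268 in KD and 12.5 ± 0.854 in OE.

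**Figure D3:**
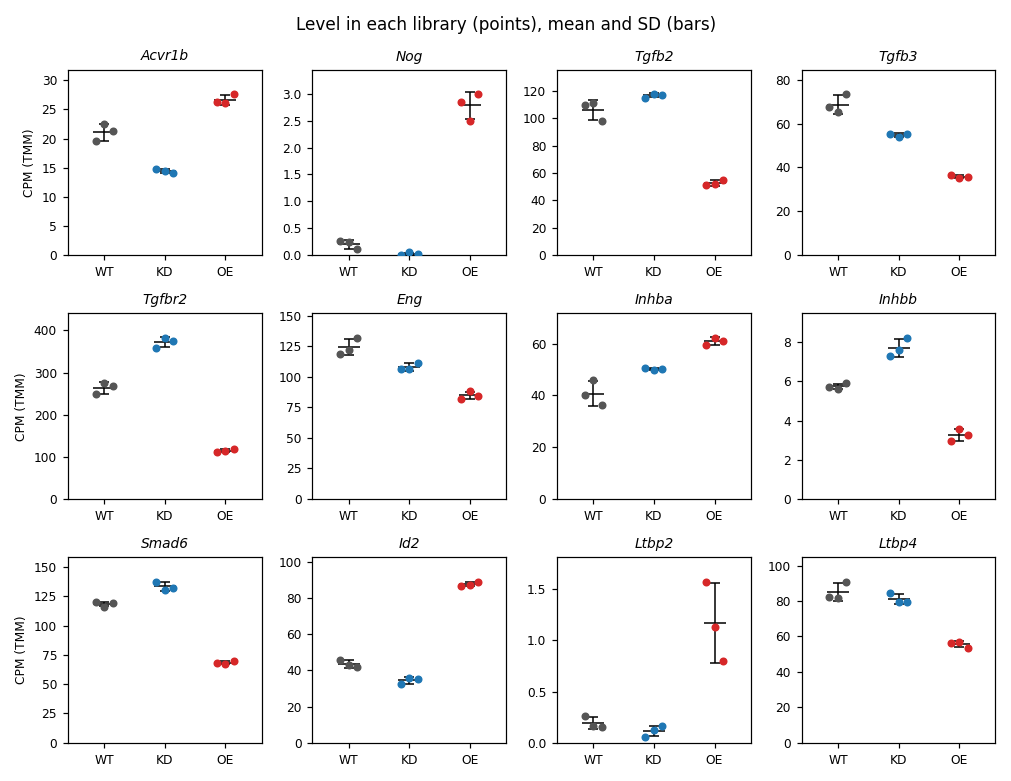
CPM in each of the 9 libraries (points) with the mean and SD (bars) for 12 members, each on an axis that starts at 0. In at least 1 comparison these passed without overlap between groups and changed by at least 0.5 on the log2 scale, and they reached a group mean of 1 CPM. In OE the 3 points of Tgfb2, Tgfb3, Tgfbr2, Eng, Inhbb, Smad6 and Ltbp4 lie below all WT points, and those of Acvr1b, Nog, Inhba, Id2 and Ltbp2 above them.

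Of the BMP ligand genes, only Bmp4 and Bmp6 were tested. Bmp4 had 33.4 ± 0.264 CPM in WT, 28.0 ± 0.218 in KD and 28.9 ± 0.447 in OE (SD, n = 3). It was lower in KD (-0.25, SE 0.0092, edgeR adjusted p 0.00226) and in OE (-0.21, SE 0.014, edgeR adjusted p 0.00592). Bmp6 had 24.5 ± 1.66, 24.02 ± 1.70 and 19.9 ± 2.15 CPM and was lower in OE (-0.30, edgeR adjusted p 0.00610). It shares 5.74% of its exon bases with Txndc5 on the opposite strand, which changed by -0.31 in OE. Reads that lie in the shared bases cannot be told apart without strand.

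The latency proteins, apart from Ltbp2, hold latent TGF-beta in the matrix until it is released. Ltbp4 (ENSMUSG00000040488, minus strand, chr7:27305136-27337692) had 82.0, 81.9 and 91.0 CPM in WT, 84.3, 79.7 and 79.4 in KD and 56.3, 56.8 and 53.7 in OE. OE stood below the other groups, which overlapped each other. It fell by 0.61 on the log2 scale in OE (SE 0.056, edgeR adjusted p 7.20e-09), and its change in KD was -0.07 (edgeR adjusted p 0.416).

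Ltbp3, the most abundant latency protein gene per length, was lower in KD (-0.33, SE 0.073, edgeR adjusted p 0.000435) and in OE (-0.31, SE 0.092, edgeR adjusted p 0.000345), and Ltbp1 in OE (-0.25, edgeR adjusted p 0.00256). Ltbp2 encodes a relative that does not bind latent TGF-beta. Ltbp2 (ENSMUSG00000002020, minus strand, chr12:84783212-84876532) had 0.264, 0.168 and 0.157 CPM in WT, 0.0596, 0.126 and 0.164 in KD and 1.58, 1.13 and 0.800 in OE. The OE libraries were all higher than the rest and spread widely among themselves. Summed counts were 27 in WT, 16 in KD and 166 in OE, a ratio of OE to WT of 6.18 with an exact 95% counting interval of 4.10 to 9.66. Ltbp2 entered the test only through its OE counts, so this interval is no support for a rise. It also leaves out the spread between the OE libraries, which had 74, 56 and 36 counts.

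Noggin, encoded by Nog, binds BMPs and keeps them from their receptors. Nog (ENSMUSG00000048616, minus strand, chr11:89300638-89302332) had 0.264, 0.235 and 0.112 CPM in WT, 0, 0.0502 and 0.0205 in KD and 2.85, 2.50 and 2.999 in OE. The groups did not overlap, although KD rests on 3 counts over its libraries and WT on 29, with 393 in OE. The ratio of OE to WT was 13.6 (exact 95% counting interval 9.33 to 20.6), which is no support for a rise because Nog entered the test only through its OE counts. The ratio of KD to WT was 0.106 (0.0206 to 0.341, edgeR adjusted p 0.00240). Per kb of exon the OE level, 1.64 CPM per kb, lay under that of Bmp4, 12.9 CPM per kb. Follistatin, encoded by Fst, binds activins and had 0.726 ± 0.157 CPM in WT, 0.698 ± 0.265 in KD and 0.603 ± 0.068 in OE, with no call in any comparison.

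Of the Smads that carry the signal, 3 passed in OE against WT. None of the 6 genes of receptor-regulated and common Smads passed in KD (edgeR), with log2 fold changes from -0.02 to 0.18. Without WT replicate 2, Smad2 (0.17) and Smad9 (0.25) passed in KD. Smad4, the common partner, had 80.5 ± 0.690, 81.6 ± 2.24 and 77.7 ± 0.603 CPM (SD, n = 3) for WT, KD and OE, with no call.

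Smad3, which carries TGF-beta and activin signals, had 117 ± 6.17 CPM in WT, 115 ± 1.01 in KD and 87.5 ± 1.97 in OE, a change of -0.42 in OE (SE 0.048, edgeR adjusted p 2.68e-07). The BMP Smads moved by less: Smad1 rose by 0.22 in OE (edgeR adjusted p 0.0206) and Smad5 by 0.14 (adjusted p 0.049993). The Smad1 call was lost without WT replicate 1 or 3 or OE replicate 2 or 3 (adjusted p 0.0511 to 0.0651). The Smad5 call was lost without any single library but WT replicate 2 (0.0604 to 0.182) and is at the threshold. Smad9 was lower in OE than in KD (-0.30, edgeR adjusted p 0.0113), a call lost without KD replicate 3 or OE replicate 1 (0.0686 to 0.0842), and without OE replicate 3 it passed against WT (-0.24). Smad2 and Smad3 made up 66.2% ± 1.12 (SD, n = 3) of the summed level per kb of the 5 receptor Smads in WT, 65.2% ± 0.060 in KD and 60.3% ± 1.17 in OE.

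Smad6, an inhibitory Smad that blocks BMP signals and is itself a BMP target, showed the largest change among the tested inhibitory Smads, Smurfs and corepressors. Smad6 (ENSMUSG00000036867, minus strand, chr9:63953076-64022059) had 119.98, 116 and 119 CPM in WT, 138, 130.4 and 132 in KD and 68.4, 67.0 and 69.9 in OE. The groups did not overlap, KD being slightly above WT and OE far below. The change was 0.17 in KD (SE 0.027, edgeR adjusted p 0.00492, not called with library totals alone at 0.14) and -0.79 in OE (SE 0.023, edgeR adjusted p 7.51e-12).

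Smad6 and Smad3 lie near each other on chromosome 9, in a 20 Mb window whose tested genes moved by a median of -0.34 on the log2 scale when OE was set against WT, and by -0.46 when it was set against KD. With that median removed, Smad6 changed by -0.45 in OE against WT and by -0.50 against KD. The change of Smad3 was then -0.08 against WT and 0.06 against KD, so that its sign against KD turned. In KD against WT the same window had a median of 0.10, which left 0.07 of the change of Smad6. Other KD calls that moved by over 1.5 times in this way were Bmpr2 (to 0.16), Inhba (to 0.19) and Ski (to 0.27). Whether the shift of a window bears on any of these genes was not tested.

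Smad7, which blocks both branches, had 42.4 ± 4.21 CPM in WT, 48.5 ± 0.539 in KD and 44.7 ± 2.24 in OE, with a rise in KD (0.19, edgeR adjusted p 0.0379) that was lost without WT replicate 3, any KD library or OE replicate 1 (0.0554 to 0.172). The ubiquitin ligase genes Smurf1 and Smurf2, whose products mark Smads and receptors for breakdown, moved apart in OE. Smurf1 was higher (0.14, edgeR adjusted p 0.00870) and Smurf2 lower (-0.29, edgeR adjusted p 0.000461). The Smurf1 call was lost with library totals alone (0.08) and with no filter beyond 1 count (0.13, adjusted p 0.0574). Ski, a corepressor of Smads, had 207 ± 5.94, 224 ± 0.752 and 217 ± 2.69 CPM, with a call in KD (0.11, edgeR adjusted p 0.0453) that was lost without any single library but WT replicate 2 or 3 (0.0596 to 0.141). Its relative Skil did not pass, but did so without WT replicate 2, at 0.23 in KD and 0.21 in OE.

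**Figure D4:**
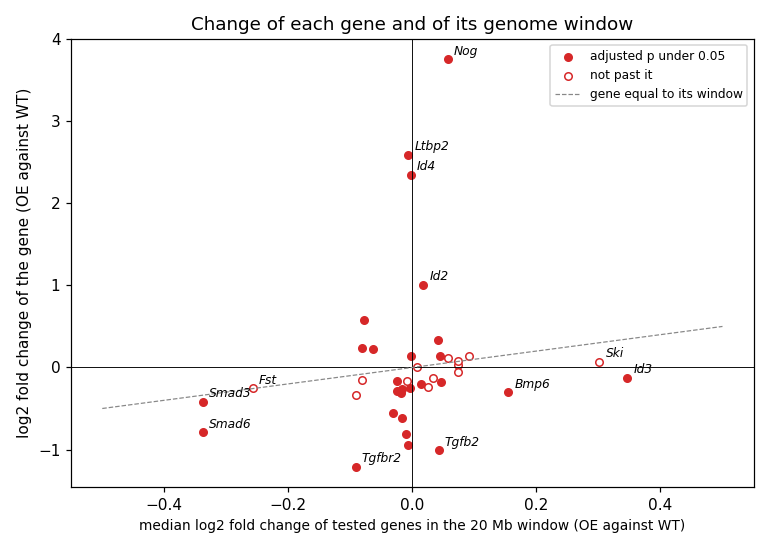
Log2 fold change of each tested member in OE against WT (vertical axis) and the median of all tested genes in its 20 Mb genome window (horizontal axis); filled points passed an adjusted p of 0.05 and the dashed line marks a gene that equals its window. Smad3 (-0.42) lies close to the line at a window median of -0.34, Smad6 (-0.79) lies below it, and Id3 (-0.13) lies below a window at 0.35.

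The Id genes are classical BMP targets, and they did not move as a block. Id2 (ENSMUSG00000020644, minus strand, chr12:25093799-25097140) had 45.9, 43.0 and 41.8 CPM in WT, 32.4, 36.1 and 35.5 in KD and 86.7, 87.4 and 89.1 in OE. The groups stood apart in the order KD, WT, OE. It was 2.02-fold higher in OE (1.01, SE 0.042, edgeR adjusted p 5.49e-12) and fell by 0.33 on the log2 scale in KD (SE 0.062, edgeR adjusted p 0.000169). Its share of the summed level per kb of Id1 to Id4 was 6.74% ± 0.337 (SD, n = 3) for WT, 5.74% ± 0.325 in KD and 13.9% ± 0.684 in OE.

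Id1, the most abundant member, had 175 ± 6.16 CPM in WT, 157 ± 4.47 in KD and 156 ± 7.45 in OE. It was lower in KD (-0.16, edgeR adjusted p 0.0146) and in OE (-0.17, edgeR adjusted p 0.00605), calls lost without KD replicate 1 or 2 (0.0928 and 0.0648) and without OE replicate 3 (0.0506). Id3 had 173 ± 6.29, 176 ± 5.60 and 159 ± 7.28 CPM and was lower in OE (-0.13, edgeR adjusted p 0.0334). That call was lost without WT replicate 1, KD replicate 3 or OE replicate 1 or 3 (0.0544 to 0.191). Id3 and Ski lie on chromosome 4 in windows whose medians were 0.35 and 0.30 in OE; with these removed the change of Id3 was -0.47 and that of Ski -0.23. Id4 had 12 counts over the WT libraries, 5 over KD and 61 over OE, a ratio of OE to WT of 5.11 (exact 95% counting interval 2.72 to 10.4). Since Id4 entered the test only through its OE counts, this interval is no support for a rise.

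Outside the 46 members, 119 further genes of the pathway were listed and 86 tested. In KD, 25 were higher and 18 lower, and in OE 17 were higher and 31 lower; between OE and KD 20 were higher and 31 lower. Over all genes tested the shares higher and lower were 11% and 10.4% in KD, 17% and 19.5% in OE, and 19.4% and 22.1% between OE and KD. The falls in OE included 7 of the 14 tested genes of latent TGF-beta activation and 7 of the 10 tested secreted antagonists, with 0 and 1 of them higher. Of the 25 tested target genes, 7 were higher and 6 lower in OE and 8 higher and 8 lower in KD.

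Gdf6, a BMP-family ligand gene, had 78.9, 84.97 and 83.1 CPM in WT, 122, 125 and 121 in KD and 31.1, 30.5 and 32.1 in OE. Per kb of exon its WT level was 23.3 CPM per kb against 14.9 for Bmp4, and its groups did not overlap, KD being highest and OE lowest. Its log2 fold change was 0.57 in KD (SE 0.035, edgeR adjusted p 1.30e-08) and -1.40 in OE (SE 0.038, edgeR adjusted p 4.80e-15). Lox, the collagen cross-linking enzyme and a TGF-beta target, had 634 ± 56.5 CPM in WT, 861 ± 23.1 in KD and 444 ± 4.04 in OE (SD, n = 3), changes of 0.44 and -0.52. Dcn, encoding the TGF-beta-binding proteoglycan decorin, had 98.0 ± 6.36, 97.8 ± 2.91 and 36.7 ± 0.740 CPM, a fall by 1.42 on the log2 scale in OE (edgeR adjusted p 1.76e-14). Dcn is also on the fibroblast list, whose sum was mostly Col1a1 and was lower in OE.

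Plat, the tissue plasminogen activator gene, fell by 1.40 in OE (edgeR adjusted p 1.52e-13) and by 0.22 in KD (adjusted p 0.00880), from 60.1 ± 4.66 CPM in WT. Acta2, the smooth muscle actin gene that TGF-beta induces, went from 7.73 ± 1.01 CPM in WT to 2.80 ± 0.0385 in KD and 1.75 ± 0.176 in OE (SD, n = 3), falls by 1.47 and 2.14 on the log2 scale. Of the 8 smooth muscle and pericyte markers, of which Acta2 is the largest, 2 reached 1 CPM in each group. Their sum ran from 12.5 to 15.4 CPM in WT, 7.62 to 7.76 in KD and 4.72 to 5.69 in OE. Their part in the fall of Acta2 was not tested. Snai1, encoding a transcription factor of mesenchymal transition, had 12.7 ± 0.296 CPM in WT, 8.83 ± 0.308 in KD and 19.9 ± 2.05 in OE, changes of -0.52 (edgeR adjusted p 0.000218) and 0.65 (edgeR adjusted p 3.51e-06). Vegfa rose in KD (0.45, edgeR adjusted p 2.01e-07) and in OE (0.40, edgeR adjusted p 2.56e-07).

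Cdkn1a, the cell cycle inhibitor gene, fell by 0.59 in KD (edgeR adjusted p 9.97e-05), with a change of -0.10 in OE that did not pass. The TGF-beta-induced factor gene Klf10 rose by 0.51 in OE (edgeR adjusted p 2.61e-07) and by 0.19 in KD (adjusted p 0.0160, lost without WT replicate 1 or KD replicate 3 at 0.0538 and 0.0711). Zfyve9, encoding an anchor that presents Smads to the receptor, rose by 0.59 in OE (edgeR adjusted p 2.14e-07). Its window had a median of 0.36, which when removed left a change of 0.23.

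**Figure D5:**
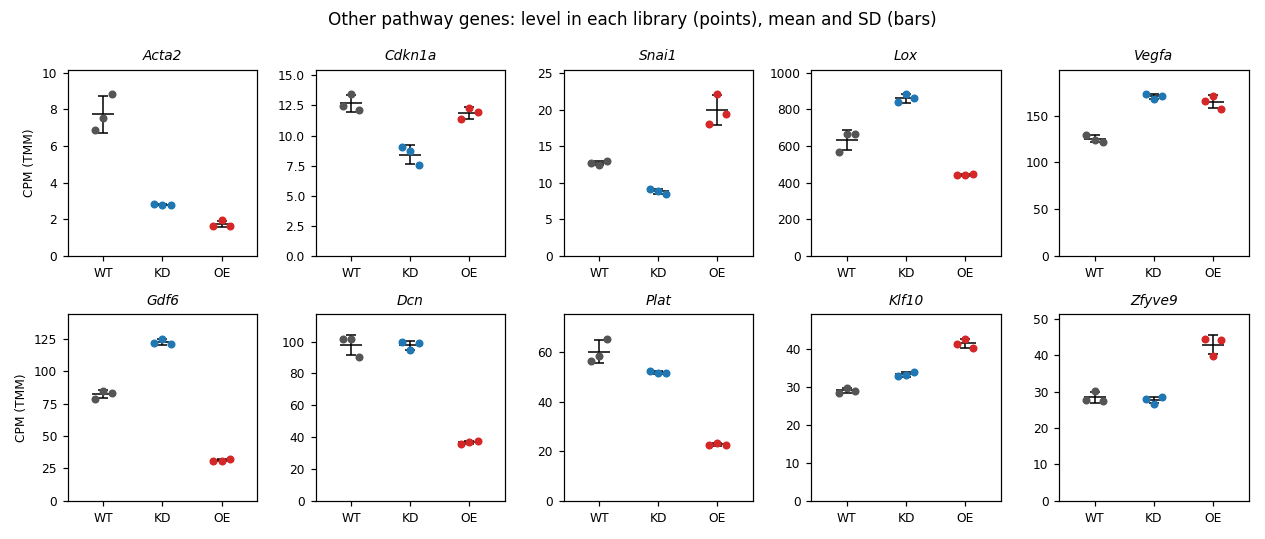
CPM in each of the 9 libraries (points) with the mean and SD (bars) for 10 further pathway genes with large changes against WT, each on an axis that starts at 0. Gdf6 and Lox are highest in KD and lowest in OE, Snai1 is lowest in KD and highest in OE, and Dcn and Plat are low in OE.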

How the data were processed

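Poly-A RNA of 9 MCEC libraries (3 WT, 3 KD, 3 OE) was measured. The deposited table holds read counts per gene, whole numbers that were not normalized. Per the submitters' processing notes the genome was GRCm38 (mm10); the aligner, counter and strand setting are not given in the sources used here. Groups were taken from the labels. Rows that named the same gene held equal counts, so 1 row of each gene was kept. This left 55487 genes, of which 16955 passed filterByExpr (about 0.210 CPM in at least 3 libraries). They were fitted in edgeR 4.0.16 (R 4.3.3) with TMM scaling, group as the only term and all 9 libraries sharing 1 estimate of spread, tested by quasi-likelihood and adjusted by Benjamini-Hochberg over all genes tested, with a threshold of 0.05. Standard errors come from log2 CPM with a prior count of 2. Levels per kb divide CPM by GENCODE exon length. Window medians cover the tested genes in 20 Mb, at least 10 of them.

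The members and lists were chosen with earlier results of these data known. Values of every library were given for members that passed without overlap between groups, changed by at least 0.5 on the log2 scale and reached 1 CPM. Of the further pathway genes, the 3 largest rises and 3 largest falls of each comparison with WT at 5 CPM or more were named. On counts simulated for KD against WT over 16955 genes with 200 changed, the fit recovered 57.3% of genes changed by 0.5 on the log2 scale (88.7% at 3 CPM or more). It recovered 74.5% of those changed by 1 (100% at 3 CPM or more), and 7.91% of calls were unchanged genes. The simulation gave each gene the same spread in every group. In the data WT libraries differed more among themselves, and 21.3% of all genes tested were called in KD. These shares therefore need not hold for the data. Alternatives covered scaling, filters, tools (DESeq2 1.42.0 and limma 3.58.1), the libraries fitted, a replicate block and a minimum fold change of 1.5. Intervals and limits for low counts cover counting error only.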

Additional observations from a re-analysis of the deposited data

How the results depend on the processing

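Requiring a change beyond 1.5-fold left 1 member in KD against WT (Nog), 7 in OE against WT (3 higher, 4 lower) and 9 in OE against KD, with 2, 10 and 14 further pathway genes and 274, 794 and 1331 of all genes. The higher members in OE included Nog and Ltbp2 against WT, and Nog, Ltbp2 and Id4 against KD. These 3 genes entered the test only through their OE counts, so their passing there is no support. With library totals alone, 10 members, 28 further pathway genes and 2473 of all genes passed in KD. The calls of Acvr2a, Bmpr2, Smad6, Smad7, Ski and Id1 in KD and of Acvr2a, Smad1, Smad5 and Smurf1 in OE were then lost. Smad3 in OE against KD turned from -0.40 to 0.063 when its window median was subtracted. DESeq2 called 16, 27 and 25 members in KD against WT, OE against WT and OE against KD, and 3808, 6278 and 7063 of all 16955 genes. Leaving out 1 library at a time gave 11 to 23, 23 to 29 and 19 to 28 members. The same runs gave 30 to 43, 44 to 55 and 47 to 57 further pathway genes, and 2537 to 4699, 5228 to 6440 and 6072 to 7604 of all genes. With the replicate number as a block, 15, 26 and 24 members were called, and 3574, 6111 and 6969 of all genes. Libraries of the same number did not deviate together (correlations -0.0421 to 0.049), so the numbers give no pairing. Members with few counts (Nog, Ltbp2, Id4) were limited by depth: a filter of 10 or more counts per library left 37 members to test, without these 3.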
